A study of Mus musculus with 6 samples.

Results

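Phlda3 and 8 further genes of the AKT pathway were followed in mouse small intestinal crypt cells with and without deletion of Ptbp1. The 9 genes were chosen by name: Phlda3, its relatives Phlda1 and Phlda2, the kinases Akt1 and Akt2, Pdpk1, Pik3ca and Rictor upstream of them, and Gsk3b downstream. All 9 were among the 55331 genes listed in the gene table, and all 9 were among the 15460 genes that the authors tested. Every splicing event listed under these gene symbols was taken from the 5 splicing tables.

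The 6 libraries came from C57BL/6 mice aged 60 days, 3 labelled WT and 3 labelled PTBP1_KO. WT mice were Ptbp1f/f without Cre, and PTBP1_KO mice were Ptbp1f/f;Vil-creER+/-, in which villin sequence drives a tamoxifen-inducible Cre in the intestinal epithelium. Mice of both groups were given tamoxifen at 100 mg/kg on 2 days, so the drug was shared and the Cre was not, and the cells were taken 20 h after injection 2. Crypts were released with 2 mM EDTA once villi had been scraped away, and cells that are not epithelial keep Ptbp1 where they are present.

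AKT kinases are recruited to the plasma membrane when PI3-kinase makes the lipid PIP3, which their pleckstrin homology (PH) domain binds. PDK1, the product of Pdpk1, then phosphorylates the activation loop of AKT, and mTORC2, whose defining subunit is RICTOR, phosphorylates the hydrophobic motif. Active AKT phosphorylates and inhibits GSK3β, the kinase that marks β-catenin for destruction in crypt cells. PHLDA3 is a small protein made up mostly of a PH domain; it competes with AKT for membrane lipid and is known as a p53-induced repressor of AKT. The pathway acts largely through phosphorylation, and the libraries measure RNA, so no value here is a measure of kinase activity.

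The Phlda3 gene and the sequence before it are shown first, because Phlda3 was the member whose level differed between the groups. In GENCODE M21 its transcript has 2 exons, 1435 nt and 125 codons, and its single intron of 1583 nt lies 68 nt after the stop codon, inside the 3' untranslated region. Phlda1, with 405 codons, also has its intron after the stop codon, by 26 nt, and in Phlda2, with 144 codons, the intron of 240 nt interrupts the stop codon. The longest run of identical bases shared by the Phlda3 and Phlda1 transcripts was 15 nt, and that shared by Phlda3 and Phlda2 was 20 nt. The 250 bases before the RefSeq start (GRCm38.p6, chr1:135765835-135766084, plus strand) are given with the GC box GGGCGG, read on either strand, in capitals.
Phlda3 promoter: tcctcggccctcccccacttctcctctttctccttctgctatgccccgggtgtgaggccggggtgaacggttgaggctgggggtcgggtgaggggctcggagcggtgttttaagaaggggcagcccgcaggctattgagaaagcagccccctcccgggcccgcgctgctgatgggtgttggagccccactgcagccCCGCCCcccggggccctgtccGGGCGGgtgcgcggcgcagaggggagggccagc
The window held 2 GC boxes, and 71.2% of its bases were G or C, against a median of 52.4% over 32851 promoters of 27025 genes. A GC box was found in 32.7% of all promoters and in 7 of the 13 promoters listed for the 8 member genes with a RefSeq entry. The p53 half-site, searched on both strands, had 0 matches in this window and was found in 7.13% of all promoters. Both motifs were chosen after the levels were seen, and a match or its lack describes these letters only.

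PTBP1 is a repressor of splicing that binds pyrimidine-rich RNA, and TCTT in DNA letters is among its best known motifs. The Phlda3 transcript held 5 copies of TCTT, or 3.48 per kb, 3 of them after the stop codon, and 0 copies of CTCTCT. A median of 5.18 copies per kb was found over the transcripts of 21901 protein-coding genes, of which 98.9% held TCTT and 63.4% held CTCTCT. Phlda1 had 2.57 and Phlda2 had 5.28 copies of TCTT per kb, and neither held CTCTCT. Within the last exon of Phlda3 a pair of copies lies in one 30-base stretch (mm10, chr1:135768982-135769011, plus strand), with TCTT in capitals.
Phlda3 TCTT pair: tacccttTCTTtgcacactTCTTccctcac
These letters are common in transcripts, and the density in Phlda3 was above that of 20.9% of genes.

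Gene levels are FPKM, fragments scaled to transcript length and library size, with 1 value per group, so no spread between the 3 libraries of a group could be computed. The depth behind them is unknown. Nothing in the labels says whether the 3 libraries of a group came from separate mice, and the authors' p-values then measure only the spread between these libraries. A gene was called when the authors' q-value from Cuffdiff was below 0.05, which held for 83 tested genes, or 0.537%, of which 60, or 0.388%, were higher in PTBP1_KO and 23, or 0.149%, were lower. Ptbp1, the deleted gene, was listed at 230.0 FPKM in WT and 122.8 in PTBP1_KO. Epithelial genes (Epcam, Vil1, Krt8, Cdh1) were abundant, with a summed level of 3017 FPKM in WT and 3314 in PTBP1_KO, and none of the 4 was called.

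Phlda3 (ENSMUSG00000041801.5, chr1:135766119-135769136, plus strand) was listed at 0.414 FPKM in WT and 2.74 in PTBP1_KO. The PTBP1_KO value was 6.62 times the WT value. In the authors' deposited table Phlda3 had a log2 fold change of 2.73 with p = 5e-05 and q = 0.0125 from Cuffdiff. Among the 60 genes called higher it ranked 8 by log2 fold change, and 4 of those genes were listed at 0 in WT. The gene was nearly silent in WT, at the 11.3 percentile of tested genes, and remained below most tested genes in PTBP1_KO, at the 33.2 percentile. On the scale log2(FPKM + 1) the difference was 1.40, which understates the change of a gene this low, and with a pseudocount of 0.1 it was 2.47.

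The other PHLDA family members were not called. Phlda1 (ENSMUSG00000020205.8, chr10:111506286-111508645, plus strand), which encodes a larger PH-domain protein linked to apoptosis and to intestinal stem cells, was listed at 18.4 FPKM in WT and 16.3 in PTBP1_KO. The authors' deposited table gave it a log2 fold change of -0.18, with p = 0.279 from Cuffdiff. Phlda2 (ENSMUSG00000010760.5, chr7:143501545-143503150, minus strand), an imprinted gene known for limiting placental growth, was listed at 3.92 FPKM in WT and 5.09 in PTBP1_KO. The authors' deposited table put its log2 fold change at 0.38, with p = 0.214 from Cuffdiff. The order of the 3 genes was the same in both groups, with Phlda1 highest and Phlda3 lowest. The summed level of the family was 22.8 FPKM in WT and 24.1 in PTBP1_KO, and Phlda3 made up 1.82% of it in WT and 11.4% in PTBP1_KO. Whether the fold changes of the 3 genes differ from each other was not tested, since the table holds no values per library.

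**Figure D1:**
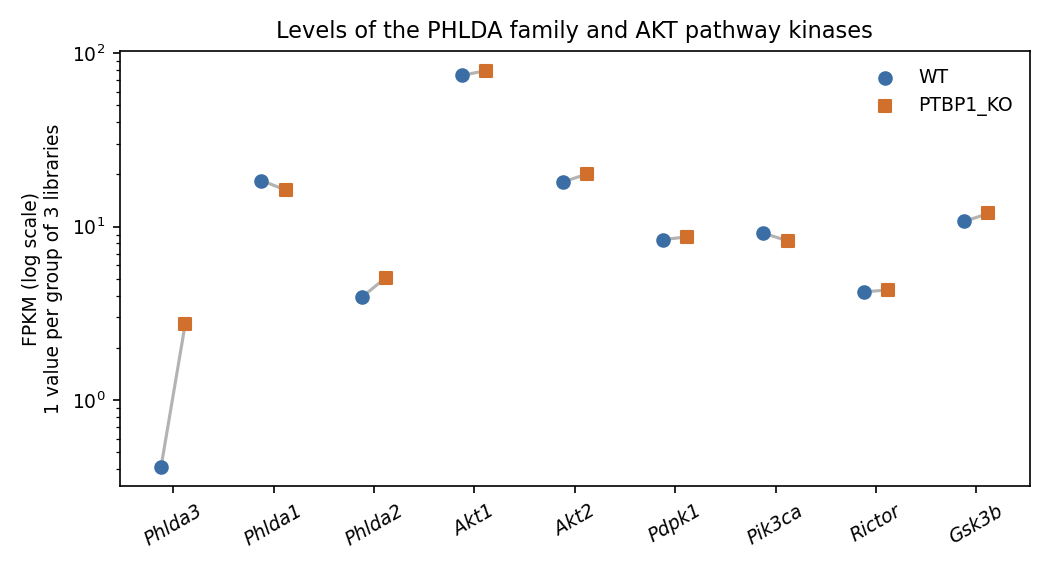
FPKM on a log axis for each of the 9 genes, with 1 value for the 3 WT libraries (circles) and 1 for the 3 PTBP1_KO libraries (squares), joined by a line; no error is available. Phlda3 moves from 0.414 to 2.74 FPKM, while the pairs of the other 8 genes lie close together.

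Akt1 and Akt2 were listed at similar levels in both groups. Akt1 (ENSMUSG00000001729.14, chr12:112653821-112674884, minus strand), the widely expressed isoform, had 74.5 FPKM in WT and 79.3 in PTBP1_KO. Akt2 (ENSMUSG00000004056.15, chr7:27591552-27640826, plus strand), the isoform best known for insulin-stimulated glucose uptake, had 18.1 FPKM in WT and 20.1 in PTBP1_KO. In the authors' deposited table the log2 fold change was 0.09 for Akt1 (p = 0.543, Cuffdiff) and 0.15 for Akt2 (p = 0.333, Cuffdiff). Akt1 was 4.12 times as high as Akt2 in WT and 3.95 times in PTBP1_KO.

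None of the 3 upstream genes was called. Pik3ca (ENSMUSG00000027665.13, chr3:32397671-32468486, plus strand), the catalytic p110α subunit of PI3-kinase, was listed at 9.16 FPKM in WT and 8.28 in PTBP1_KO. Pdpk1 (ENSMUSG00000024122.16, chr17:24073680-24150924, minus strand) was listed at 8.42 FPKM in WT and 8.73 in PTBP1_KO. Rictor (ENSMUSG00000050310.9, chr15:6708379-6800401, plus strand) was listed at 4.21 FPKM in WT and 4.31 in PTBP1_KO. The authors' deposited table gave them log2 fold changes of -0.15, 0.05 and 0.03, taken in the order Pik3ca, Pdpk1, Rictor, with p = 0.575, p = 0.729 and p = 0.827 from Cuffdiff. Downstream, Gsk3b (ENSMUSG00000022812.14, chr16:38089001-38246084, plus strand) had 10.7 FPKM in WT and 11.9 in PTBP1_KO. For it the authors' deposited table held a log2 fold change of 0.15, with p = 0.421 from Cuffdiff.

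Among the 9 genes, then, 1 was called by Cuffdiff's q, against 0.537% of all tested genes, and the same gene alone had an unadjusted p below 0.05, against 4.35%. The 9 were chosen with earlier results of these data known, so this count is no independent evidence about the pathway. The other 8 had a median log2 ratio of 0.07 on the log2(FPKM + 1) scale, with 6 higher and 2 lower in PTBP1_KO, and the median over all tested genes was 0.02. All 8 had q = 0.9998 in the authors' deposited table. Between 3.92 and 79.3 FPKM, the range that these 8 span, 8454 genes were tested and 37 were called. The smallest absolute log2 fold change among those 37, in the authors' deposited table, was 0.60, for Gsn, a gene named only after its value was seen. The largest among the 8 members was 0.38, so changes of the size seen in these genes were not called for any gene at such levels. From high to low, the WT levels ran Akt1, Phlda1, Akt2, Gsk3b, Pik3ca, Pdpk1, Rictor, Phlda2, Phlda3. In PTBP1_KO the neighbours Phlda1 and Akt2, Pik3ca and Pdpk1, and Rictor and Phlda2 stood in the opposite order, and these neighbours could not be tested against each other. With no error per gene, no interval can be put around these differences.

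**Figure D2:**
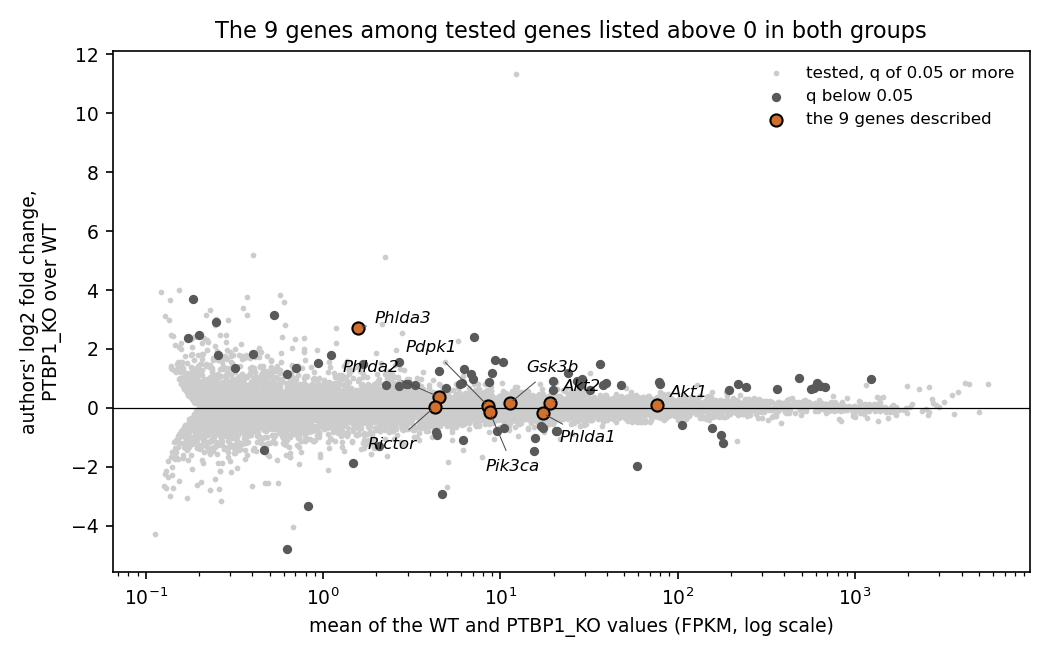
The authors' log2 fold change (PTBP1_KO over WT) against the mean of both FPKM values (log axis) for tested genes listed above 0 in both groups, with genes of q below 0.05 in dark grey and the 9 genes in orange. Phlda3 stands at 2.73 at a low level, and the other 8 lie within 0.38 of 0.

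The called genes with a fold change nearest to that of Phlda3 were also mostly low. By distance in the authors' deposited log2 fold change, over the 2 group values, 4 of the 5 nearest were Inka2, BC064078, Eda2r and Ccr4. Inka2 was listed at 0.0575 FPKM in WT and 0.438 in PTBP1_KO. Eda2r, a TNF receptor family member known as a p53 target, was listed at 0.0560 and 0.292 FPKM in the same order, and Ccr4, a chemokine receptor of T cells, at 0.108 and 0.956 FPKM. BC064078, a pseudogene, was higher, with 2.25 FPKM in WT and 12.03 in PTBP1_KO. Likeness over 2 values is a description and says nothing of shared control.

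The tested genes beside Phlda3 on chromosome 1, looked up after its level was seen, were not called. Csrp1, which ends 13.9 kb before it, was listed at 24.6 FPKM in WT and 23.0 in PTBP1_KO, and the authors' deposited table gave p = 0.526 (Cuffdiff). Tnni1, the slow skeletal troponin I gene, starts 10.3 kb after it and was listed at 0.106 FPKM in WT and 0.302 in PTBP1_KO, with a log2 fold change of 1.51 and p = 0.0123 in the authors' deposited table (Cuffdiff). Lad1, which starts 49.5 kb after it and encodes a basement membrane protein, was listed at 149 FPKM in WT and 154 in PTBP1_KO. Ipo9, an importin gene 335.62 kb before it, was listed at 10.4 and 10.5 FPKM.

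Across the rest of the pathway 0 genes were called. Of 75 genes in 10 lists ordered by role, 72 were tested, and 44 of these were listed higher and 28 lower in PTBP1_KO. Cuffdiff's q called 0 of them, against 0.537% of all tested genes, and 3 had an unadjusted p below 0.05, against 4.35%. Their median log2 ratio was 0.03 on the log2(FPKM + 1) scale, beside 0.02 for all tested genes. Every single gene of these lists lay between -0.46 and 0.41 on that scale.

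At the receptor end, 5 ligand genes had a median log2 ratio of 0.11 and 8 genes for receptors and adaptors had 0.09, with 0 called in each. Egfr, the EGF receptor, had the smallest p of any pathway gene listed higher: 3.82 FPKM in WT and 5.39 in PTBP1_KO, with a log2 fold change of 0.50, p = 0.0111 and q = 0.555 in the authors' deposited table (Cuffdiff). Ereg, the EGF family ligand epiregulin, was listed at 0.733 FPKM in WT and 0.981 in PTBP1_KO, and the authors' deposited table gave p = 0.132 (Cuffdiff). Neither gene passed the test.

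Among 7 genes listed for PI3-kinase besides Pik3ca, 3 were listed higher, the inhibitor Pik3ip1 among them, and 4 lower, and 0 were called. Pik3cd, the p110δ subunit found mainly in leukocytes, was listed at 1.81 FPKM in WT and 2.58 in PTBP1_KO, a difference with p = 0.0157 and q = 0.666 in the authors' deposited table (Cuffdiff). Pik3cg, the p110γ subunit that G-protein-coupled receptors activate, was listed at 2.53 and 1.93 FPKM, with p = 0.0624 in the authors' deposited table (Cuffdiff). Of 11 phosphatases and AKT inhibitors, 7 were listed higher and 4 lower, with 0 called. Inpp5d, the 5-phosphatase SHIP1, known from blood cells, was listed at 4.72 and 3.15 FPKM, with a log2 fold change of -0.58, p = 0.0381 and q = 0.9998 in the authors' deposited table (Cuffdiff).

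The kinase complexes and the outputs of the pathway held 0 called genes. The mTORC2 list without Rictor had a median log2 ratio of -0.07 over 6 genes, 4 of them listed lower, and 0 called. Deptor, an inhibitor bound to both mTOR complexes, had the smallest p among them, with 11.5 FPKM in WT, 9.67 in PTBP1_KO and p = 0.0831 in the authors' deposited table (Cuffdiff). The mTORC1 list had a median of 0.03 over 8 genes, the AKT substrates 0.02 over 9, and the partners of GSK3 in β-catenin turnover -0.03 over 5. FOXO targets, which active AKT holds down by keeping FOXO factors out of the nucleus, had a median of 0.08 over 12 genes, 8 listed higher and 4 lower. Of the genes in these 5 lists, 0 had an unadjusted p below 0.05.

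**Figure D3:**
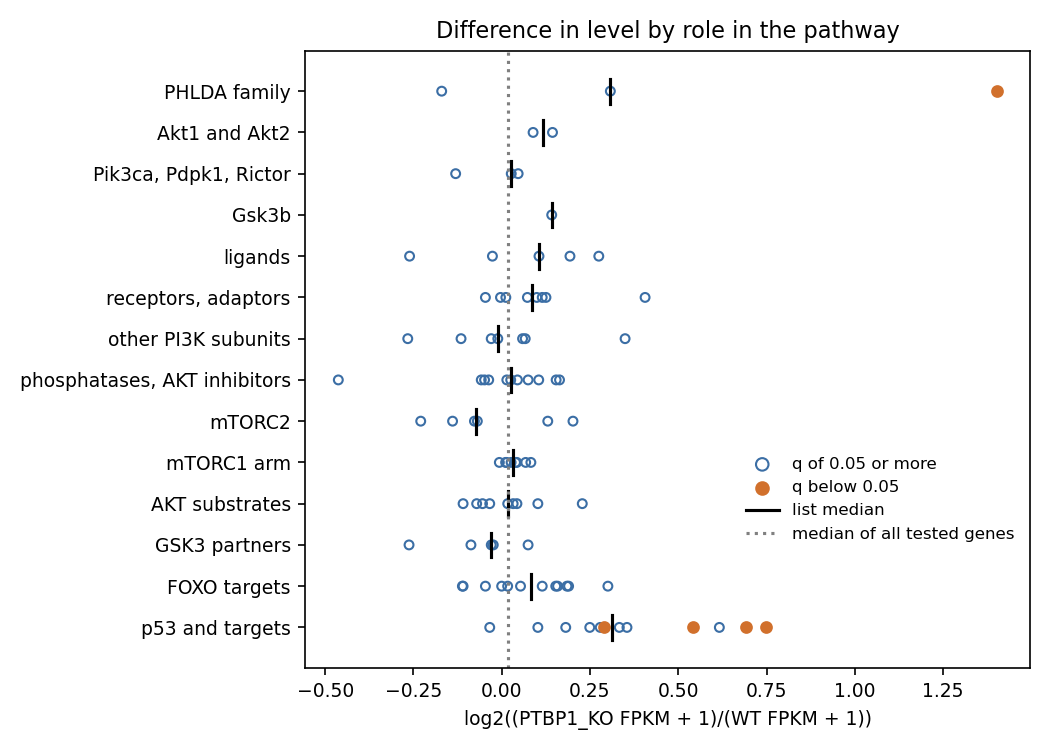
Each circle is a tested gene at log2((PTBP1_KO FPKM + 1)/(WT FPKM + 1)), in rows for the lists described, with list medians as black bars and the median of all tested genes (0.02) as a dotted line; filled circles have q below 0.05. Phlda3 at 1.40 and 4 genes of the p53 list are filled, and every other pathway row holds open circles around 0.

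Phlda3, itself known as a p53 target, was not counted in the list of p53 and its known targets. That list had 4 of 12 genes called, all higher, against 0.388% of tested genes called higher. These were Ccng1 (20.8 FPKM in WT, 35.6 in PTBP1_KO), Trp53inp1 (2.00 and 3.37 FPKM), Eda2r and Gdf15 (0.485 and 1.40 FPKM), while Trp53 itself was listed at 55.1 and 53.8 FPKM. This list was chosen with earlier results of these data known, so its count is no independent evidence of its direction.

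Genes that mark other cell types also differed between the groups, and their part in the values above was not tested. Of all tested genes, 8455 of 15460 were listed higher, 0.537% were called and 4.35% had an unadjusted p below 0.05. In bulk samples, more cells of a type and more RNA per cell cannot be told apart. The summed level of 3 Paneth cell genes was 2476 FPKM in WT and 4173 in PTBP1_KO, with 3 of 3 listed higher, 1, Mmp7, called and 2 at an unadjusted p below 0.05 from Cuffdiff. For 6 immune genes it was 30.6 and 48.7 FPKM, with 6 of 6 listed higher, 1, Cd8a, called and 5 at an unadjusted p below 0.05 from Cuffdiff. Of the genes above that leukocytes are known to express, Pik3cd and Ccr4 were also listed higher in PTBP1_KO, whereas Pik3cg and Inpp5d were listed lower. Like Pik3cg and Inpp5d, the tuft cell genes below were listed lower, and which cells the RNA came from was not tested. Stromal and muscle genes summed to 1.54 FPKM in WT and 0.938 in PTBP1_KO over 6 genes. Of the 4 that were tested, 3 (Col1a1, Col1a2 and Col3a1) were listed lower with an unadjusted p below 0.05 from Cuffdiff, and 0 were called. Endothelial genes summed to 0.600 and 0.657 FPKM over 3, of which 1 was tested and 0 called. A list of 9 tuft cell genes, added after the values were seen, summed to 124 and 78.7 FPKM, with 9 of 9 listed lower, 2 called, Sh2d6 among them, and 6 at an unadjusted p below 0.05 from Cuffdiff. No marker was listed at 0 in either group.

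In the splicing tables, the member genes had 44 events: 30 skipped exons, 12 pairs of mutually exclusive exons and 2 alternative 3' splice sites. No event was listed under Phlda3, Phlda1 or Phlda2. An event was called at an FDR below 0.05, an absolute inclusion difference of at least 0.1 and 20 reads or more per library on average, which held for 843 of 53918 events, or 1.56%. Of the 41 member events with that coverage, 0 were called. An FDR below 0.05 in the authors' deposited table was met by 0 of them, against 3.76% of all events, and an unadjusted p below 0.05 (MATS) by 1, against 10.3%. By gene, 0 of the 6 members with events had a called one, against 6.61% of all genes with an event of that coverage. The splicing tables divide the libraries into a first and a second set of 3 without naming the genotype of either, so differences are given as first minus second set and no direction by genotype is drawn. Values per library are given as values only.

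Nearly all measured exons of these genes were included in nearly all transcripts. The 27 skipped-exon events with enough reads covered 25 exons, and 22 of the 25 had an inclusion of at least 95% over all libraries. Their median absolute difference between sets was 0.004 in the authors' deposited table, beside 0.006 for all 37725 skipped-exon events. The 3 below 95% were 1 exon of Gsk3b and 2 of Akt2. The alternative stretches that the next results describe are printed in lower case, on mm10 and on the strand of the gene. Capitals mark the AG that ends the Akt1 stretch and TCTT in the Tsc2 exon.
Gsk3b exon, 39 nt, chr16:38217113-38217151: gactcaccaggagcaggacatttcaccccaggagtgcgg
Akt1 alternative 3' part, 26 nt, chr12:112662309-112662334: ctccttatgtctcctatcccctgcAG
Akt2 alternative 3' part, 39 nt, chr7:27629296-27629334: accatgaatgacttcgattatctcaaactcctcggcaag
Pdpk1 exon, 43 nt, chr17:24107229-24107271: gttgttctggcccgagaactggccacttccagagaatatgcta
Tsc2 exon, 69 nt, chr17:24601389-24601457: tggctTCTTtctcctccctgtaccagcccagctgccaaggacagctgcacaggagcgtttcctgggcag

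The clearest alternative exon among the members was that of Gsk3b, a coding exon of 39 nt that adds residues within the kinase domain without shifting the frame. Its inclusion was 13.3%, 9.84% and 7.16% in the libraries of the first set and 9.45%, 8.29% and 9.30% in those of the second. The 6 values overlap, and each rests on 194 reads or more. Over all libraries the exon was included in 9.59% (exact binomial 95% interval 8.26 to 11.1%), an interval that covers counting error only. In the authors' deposited table the difference was 0.01 with p = 0.511 and FDR = 1 from MATS. The event of Gsk3b with the smallest p, a pair of mutually exclusive exons, had p = 0.143 and a difference of 0.04 in the authors' deposited table (MATS).

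The AKT kinases each had rare alternative forms. In Akt1, a 3' splice site 26 nt upstream of the usual one was used at 1.94%, 0.96% and 1.30% in the first set and at 1.94%, 0.60% and 0.96% in the second. The longer exon that it gives, of 155 nt, is known from a non-coding transcript. Over all libraries the inclusion, scaled by effective length, was 1.21% (exact binomial 95% interval 0.929 to 1.56%, counting error only), from 61 inclusion reads of 4267 in all, and 76.9% of the added bases were C or T. In Akt2, an untranslated exon of 163 nt (chr7:27607243-27607405) was included at 0.757%, 0.260% and 1.14% in the first set and at 3.42%, 0.410% and 1.37% in the second. These values rest on few inclusion reads, 8 in the highest library and 1 in the lowest. Another Akt2 exon, of 409 nt and known from a non-coding transcript, was included at 0.187% over all libraries. The start of an Akt2 coding exon, a part of 39 nt, was kept in 98.0 to 100% of transcripts in every library.

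The smallest p of any Akt2 event came from the same exon of 163 nt joined to another upstream exon. In the authors' deposited table it had a difference of 0.35 with p = 0.00215 and FDR = 0.0547 (MATS). It rested on a mean of 5.5 reads per library and as few as 1, far under the minimum of 20. Its inclusion was 48.4%, 100% and 65.2% in the first set and 42.9%, 0% and 65.2% in the second, so the sets overlap, and it was not called.

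Pdpk1 had the only member event that combined enough reads with an unadjusted p below 0.05. Counted against a neighbour of 98 nt, an exon of 43 nt stood at 19.9%, 18.5% and 25.7% in the first set and at 37.0%, 26.3% and 27.0% in the second. The sets do not overlap, but they are separated by less than 1 percentage point at their nearest libraries. The difference was -0.09 with p = 0.0461 and FDR = 0.391 in the authors' deposited table (MATS), over a mean of 74.5 reads per library. As a skipped exon, the same 43 nt exon was included at 88.5%, 82.2% and 100% in the first set and at 100%, 100% and 94.7% in the second, from a mean of 18.3 reads and with p = 0.317 in the authors' deposited table (MATS). By position, that event has the 98 nt exon as the neighbour to which the 43 nt exon is spliced. Both exons can thus lie in the same transcript, and the shares of the pair do not measure a switch from one exon to the other.

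Rictor held the largest difference among members with enough reads. An exon of 132 nt (chr15:6745449-6745580), counted against one of 64 nt (chr15:6750658-6750721), stood at 66.2%, 78.5% and 82.5% in the first set and at 79.0%, 58.0% and 54.5% in the second. These values overlap, and 1 library had as few as 12 reads. The difference was 0.12 with p = 0.0698 and FDR = 0.477 in the authors' deposited table (MATS). Both events listed for Pik3ca were coding exons included at 99.0% and 99.9%, each with p = 1 in the authors' deposited table (MATS).

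The 12 pairs listed as mutually exclusive need a caution about their scale. For 9 of them both exons also stood in the skipped-exon table, each at an inclusion of at least 97.5%, while the same exons counted against each other gave 42.0 to 68.4%. Rictor's 132 and 64 nt exons, for example, were included at 99.2% and 99.1% as skipped exons. Values near the middle in these pairs are therefore no share of transcripts that lack an exon. The same limit holds for the Pdpk1 pair of 43 and 98 nt, outside these 9, whose exons stood as neighbours in a skipped-exon event of few reads.

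**Figure D4:**
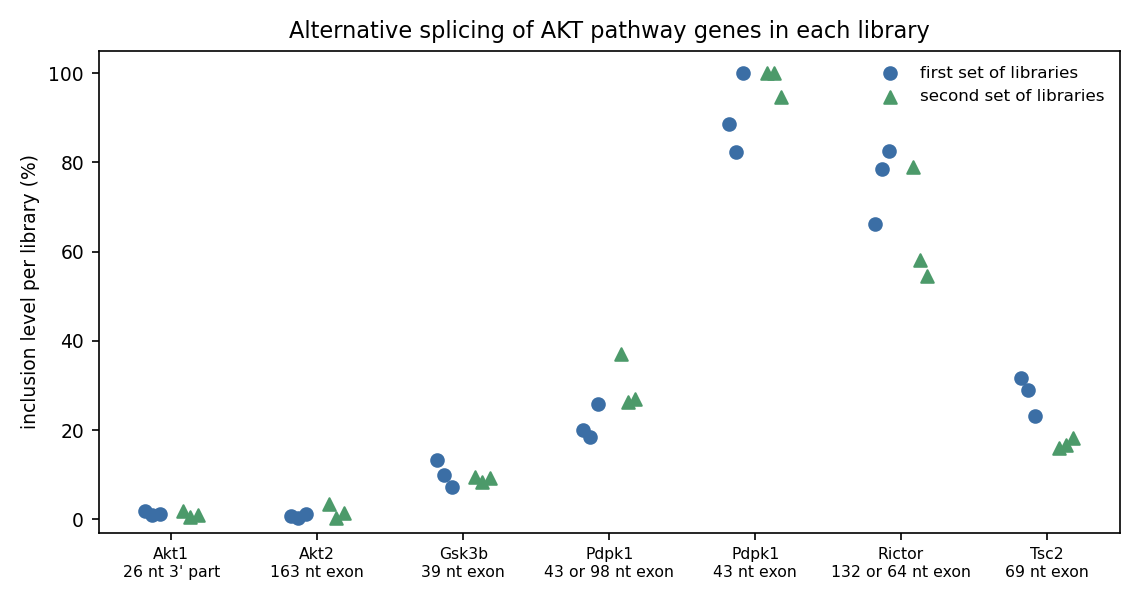
Inclusion level in percent for 7 events, 1 point per library, with the first set of 3 libraries as circles and the second set of 3 as triangles; the genotype of the sets is not named in the tables. The Gsk3b exon lies between 7.16 and 13.3% in all 6 libraries, and the Tsc2 exon at 23.2 to 31.7% in the first set and 16.0 to 18.2% in the second.

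Among the other pathway genes, 45 had at least 1 event with enough reads, and 3 of 211 such events were called, or 1.42%, against 1.56% of all events. Tsc2, the GTPase-activating protein through which AKT controls mTORC1, had a coding exon of 69 nt included at 31.7%, 29.1% and 23.2% in the first set and at 16.0%, 16.6% and 18.2% in the second. The sets do not overlap. In the authors' deposited table its difference was 0.11 with FDR = 0.0377 (MATS), over a mean of 102 reads per library. Mdm2, the ubiquitin ligase that targets p53 and is phosphorylated by AKT, had an event over an intron of 1312 nt (chr10:117695069-117696380), read at 87.4%, 100% and 100% against 86.2%, 73.6% and 91.6%. Its sets overlap, and in the authors' deposited table its difference was 0.12 with FDR = 0.0305 (MATS). Only 20 reads over all libraries skipped the intron, beside 1937 inclusion reads, so these levels rest on few spliced reads. Inpp4a, a phosphatase that acts on PI(3,4)P2, had an alternative 5' splice site at 100%, 79.4% and 100% against 67.7%, 100% and 75.8%, from a mean of 20.7 reads, which a minimum of 50 would leave out, with a difference of 0.12 and FDR = 0.0275 in the authors' deposited table (MATS). A share of 1.42% is near the background, so the count says nothing particular about the pathway.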

How the data were processed

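Poly(A) RNA of crypt cells from 3 WT and 3 PTBP1_KO libraries was sequenced with a stranded mRNA kit, per the labels' protocols. The submitters' processing notes name mm10 and bcl2fastq 2.20, STAR 2.6.1d, Trimmomatic 0.38, Cuffdiff and Cufflinks. The deposited gene table holds 1 FPKM value per group, with the authors' log2 fold change, p-value and q-value. The authors' splicing tables hold reads per library, a p-value, an FDR and an inclusion difference, which is a score between -1 and 1, per the file headers. Depth per library is unknown for FPKM, and reads per event limit the splicing values.

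The members and gene lists were chosen with earlier results of these data known. No test was recomputed, since the gene table has no values per library and the splicing headers name no genotype. Inclusion levels per library (10 deposited columns) were set aside: inclusion was recomputed from reads and effective lengths, and the differences so obtained matched the deposited ones to within 0.00112 over 53918 events. The calculation was also tested on simulated data. List medians used log2((PTBP1_KO + 1)/(WT + 1)). Exact binomial (Clopper-Pearson) 95% intervals were taken on read shares and carried to inclusion. Coordinates are 1-based, on GENCODE M21.

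Named were all 9 members, the 5 called genes nearest to Phlda3 in log2 fold change, called genes of the pathway and p53 lists, the 3 pathway genes of smallest p in each direction, the smallest-p event of each member and every called pathway event. Neighbours of Phlda3, motif counts in transcripts and promoters, tuft cell genes, the Tsc2 sequence and rare events printed beside the rule were added after values were seen. Intron windows and protein sequences were not used here. Some genes that the rule names are not reported here. Software was scipy 1.17.1, pandas 2.3.3, numpy 2.4.6 and matplotlib 3.10.9 under Python 3.11.15.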

Additional observations from a re-analysis of the deposited data

How the results depend on the processing

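Phlda3 stayed the only member called at a q-value below 0.1 and at an unadjusted p below 0.05. The same held with a minimum absolute log2 fold change of 1 and with a minimum of 1 FPKM in either group. Phlda3 meets these settings by its own values (q = 0.0125 from Cuffdiff, log2 fold change of 2.73, 2.74 FPKM in PTBP1_KO). Its call could therefore not change under them, and only other members could have been added. At q below 0.01 the number of members called went from 1 to 0. The smallest q-value of any tested gene was 0.0125, that of Phlda3, so no gene of the table could pass 0.01. Of the pathway genes, 0 were called at either other q threshold, and 3 at an unadjusted p below 0.05. Called pathway splicing events went from 3 to 0 at a difference of at least 0.2 and to 0 at an FDR below 0.01, and stayed between 2 and 4 in the other 5 settings, of which the one without a minimum difference was chosen after seeing the data. Member events called were 0 in all 7 settings. The smallest FDR of a member event with enough reads was 0.391 (MATS), so only the setting with a mean of 10 reads could have changed this count. The log2 ratio of Phlda3 rose from 1.40 to 2.47 with a pseudocount of 0.1, and the median log2 ratio of the pathway genes stayed between 0.0130 and 0.0347.

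No paired analysis was possible because the gene table holds 1 value per group and the splicing tables do not tie libraries to a genotype or number. For the same reasons leaving out each replicate in turn was not run. Depth limits the rarest splicing forms: events under 20 reads per library gave inclusion values from 0 to 100%.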
